A study of Mus musculus with 13 samples.

Results

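Gene expression at day 14 after bleomycin was compared with sham in collagen-expressing fibroblasts of the mouse lung. The comparison used 5 of the 13 libraries of the series, 3 from day 14 after bleomycin and 2 from sham. It covered 12938 of 43346 listed genes, those that reached at least 1 RPKM (reads per gene, scaled by gene length and library depth) in at least 2 of the 13 libraries. The sham and bleomycin libraries came from Col1a1-GFP mice aged 8 weeks, whose green fluorescent reporter is driven by the collagen I promoter, and the design text calls the sequenced cells fibroblasts. Labels give no sorting gate, sex, bleomycin dose, route or hour of collection, and give no day for sham. The other groups were day 30 after bleomycin (n = 5, same strain and age) and day 14 after pneumonectomy (n = 3, labelled primary sorted lung fibroblasts). The pneumonectomy group is headed young in the deposited values, with no age in weeks given. Nothing in the labels says that libraries of a group came from separate animals, so p-values measure only the spread between these libraries, which may be technical.

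Bleomycin is a DNA-damaging drug that injures the lung epithelium and is widely used to produce scarring in mice. In scarred lung, fibroblasts lay down collagen, fibronectin and other matrix, cross-link it, and take up or lose specialised programmes that they carry in healthy tissue. Healthy lung holds alveolar fibroblasts, which lie in the walls of the air spaces, adventitial fibroblasts, which surround vessels and airways, and contractile cells of vessel walls and airways.

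Both sham libraries and all 3 bleomycin libraries held fibroblast transcripts at high levels. Col1a1, the collagen I alpha 1 chain whose promoter marks the cells, reached 437 and 670.01 RPKM in the sham libraries and 1633, 1196 and 1289.8 RPKM in the bleomycin libraries. Epcam, an epithelial surface protein, stayed between 0.0363 and 0.167 RPKM in these libraries. Epithelial transcripts were not absent, however. Sftpc, surfactant protein C, measured 11.4 and 2.83 RPKM in sham and 1.17, 5.29 and 12.96 RPKM after bleomycin. Summed over the 16 alveolar epithelial markers listed, RPKM came to 31.4 and 19.7 in sham and 20.5, 31.1 and 40.2 after bleomycin. Markers of other cells did differ between the groups. The summed RPKM of 20 endothelial markers was 35.7 and 29.7 in sham and 389, 732 and 671 after bleomycin, and 17 of the 19 tested were called higher. The summed RPKM of 20 macrophage and monocyte markers was 50.9 and 48.3 in sham and 163, 547 and 421 after bleomycin, with 15 of 18 tested called higher. Defining endothelial genes such as Cdh5, the junction protein VE-cadherin, went from 1.39 and 0.607 RPKM to 64.8, 123 and 114 RPKM, and no marker of either list was at 0 in any of the 5 libraries. Bleomycin replicate 1 held the lowest sum of both lists among the day 14 bleomycin libraries. No day 30 library exceeded 27.2 summed RPKM of endothelial markers, whereas macrophage and monocyte markers summed to 260 to 831 RPKM at day 30. The sums of 15 pericyte and smooth muscle markers were 409 and 224 in sham and 160, 196 and 221 after bleomycin. Neutrophil and mast cell markers summed to 15.5 and 2.67 RPKM in sham and 40.4, 47.4 and 37.04 RPKM after bleomycin, with 6 of 7 tested called higher, a count of 1 without sham replicate 2 and of 3 without bleomycin replicate 2. Platelet and erythroid markers summed to 2.52 and 7.71 RPKM in sham and 13.95, 19.1 and 15.3 RPKM after bleomycin, with 3 of 4 called higher and none without sham replicate 1. Of the lymphocyte, alveolar epithelial, airway epithelial and mesothelial lists at most 1 marker each was called higher, as were 3 of 5 Schwann and neural markers. In bulk RNA, fewer cells of a type and less RNA per cell cannot be told apart, and the part these other cells have in any result below was not tested. Values for bleomycin replicate 1 alone are therefore given beside some of the results that move with these markers, not beside all. Where a fit leaves a group with 1 library, as that one does, the library is assumed to vary like the other groups, so its p-values hold no measure of spread within that group.

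**Figure D1:**
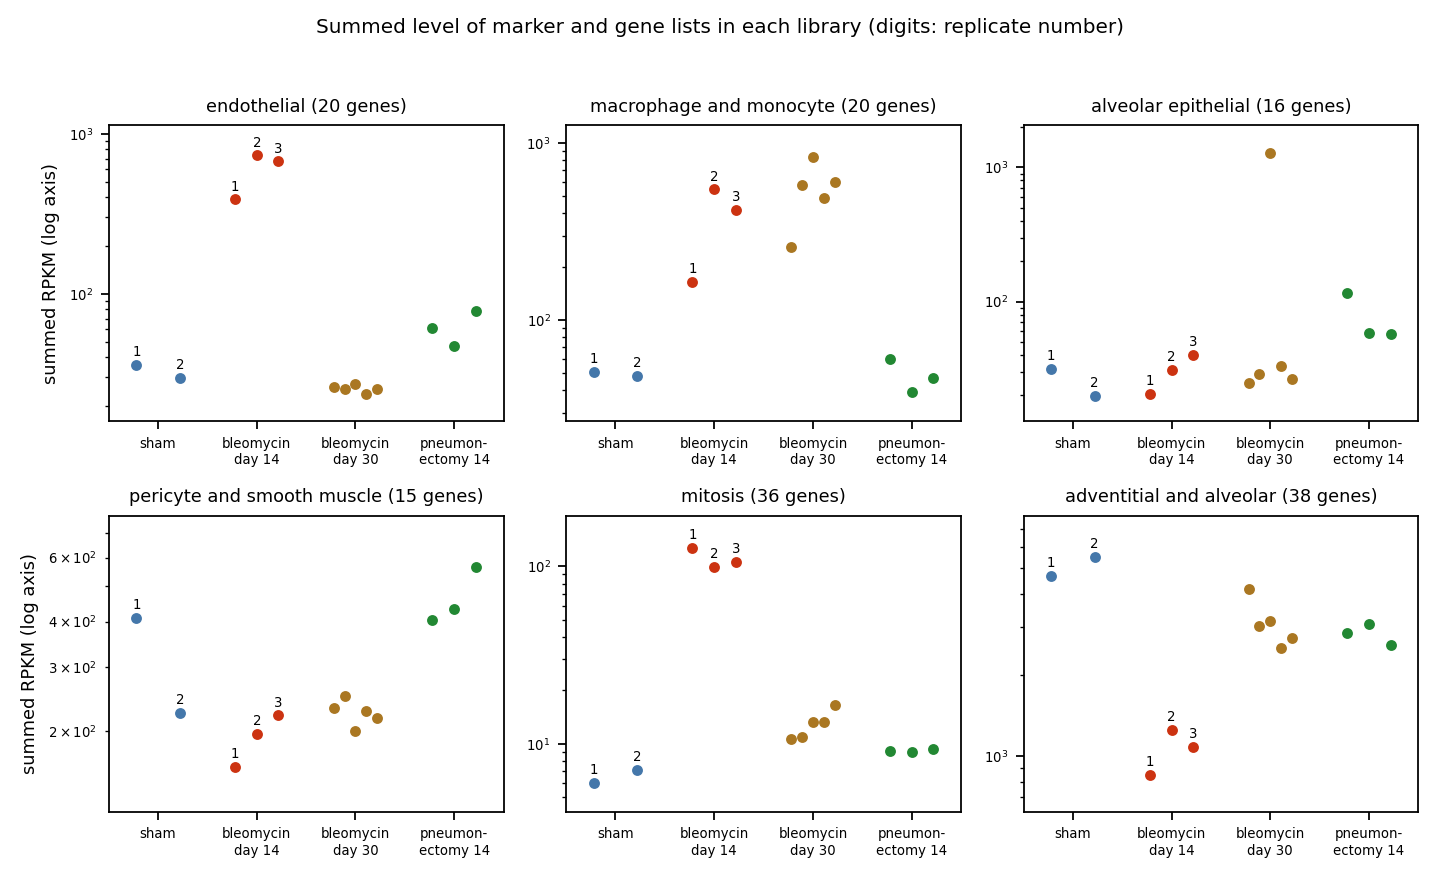
Summed RPKM (log axis) of 4 marker lists and 2 gene lists in each of the 13 libraries, 1 point per library, with replicate numbers shown for sham and bleomycin day 14. The 3 bleomycin day 14 libraries lie highest for endothelial markers (389 to 732) and for mitosis genes (99.3 to 127), and replicate 1 lies lowest of the 3 for endothelial and macrophage markers.

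The libraries also differed in sex. Sham replicate 1 held both Xist, the female inactive-X transcript, at 15.9 RPKM and the Y-linked gene Ddx3y at 2.14 RPKM, whereas sham replicate 2 held 0.0147 and 11.4 RPKM. The 3 bleomycin libraries held at most 0.0126 RPKM of Xist and 9.91 to 10.5 RPKM of Ddx3y. Sham replicate 1 thus carried transcripts of both sexes, and Xist was called lower after bleomycin through that library alone. Library depth, recovered from the spacing of low values, was 67.6 and 72.0 M reads in sham and 79.9, 99.9 and 87.5 M reads in bleomycin. A single read in a 2-kilobase gene was worth 0.00501 to 0.00740 RPKM in these 5 libraries, a figure that covers counting error only.

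Day 14 after bleomycin differed from sham across most of the transcriptome. At an adjusted p of 0.05 (limma, Benjamini-Hochberg over all genes tested), 4318 genes were called higher (33.4%) and 3870 lower (29.9%). Of these, 1545 were over 2-fold higher (11.9%) and 1312 over 2-fold lower (10.1%), and 343 and 163 were over 8-fold. The median change of all genes was 0.02 on the log2 scale and the median size of a change was 0.44, with a median standard error of 0.12. Without factors that scale libraries to each other the median shifted to 0.26, and 71.6% of called genes were higher instead of 52.7%, so small changes carry that shift. A total of 747 genes entered through the bleomycin day 14 libraries alone, and among the other 12191 genes 1042 were over 2-fold higher and 1312 over 2-fold lower. Values of the 3 bleomycin and 2 sham libraries did not overlap for 39.9% of genes in the higher and 36.4% in the lower direction. For 5027 genes (38.9%) the 95% interval of the change lay within 1.5-fold in either direction. Spearman correlations across genes were 0.97 within sham, 0.970 to 0.989 within bleomycin, and 0.776 to 0.794 between the groups.

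**Figure D2:**
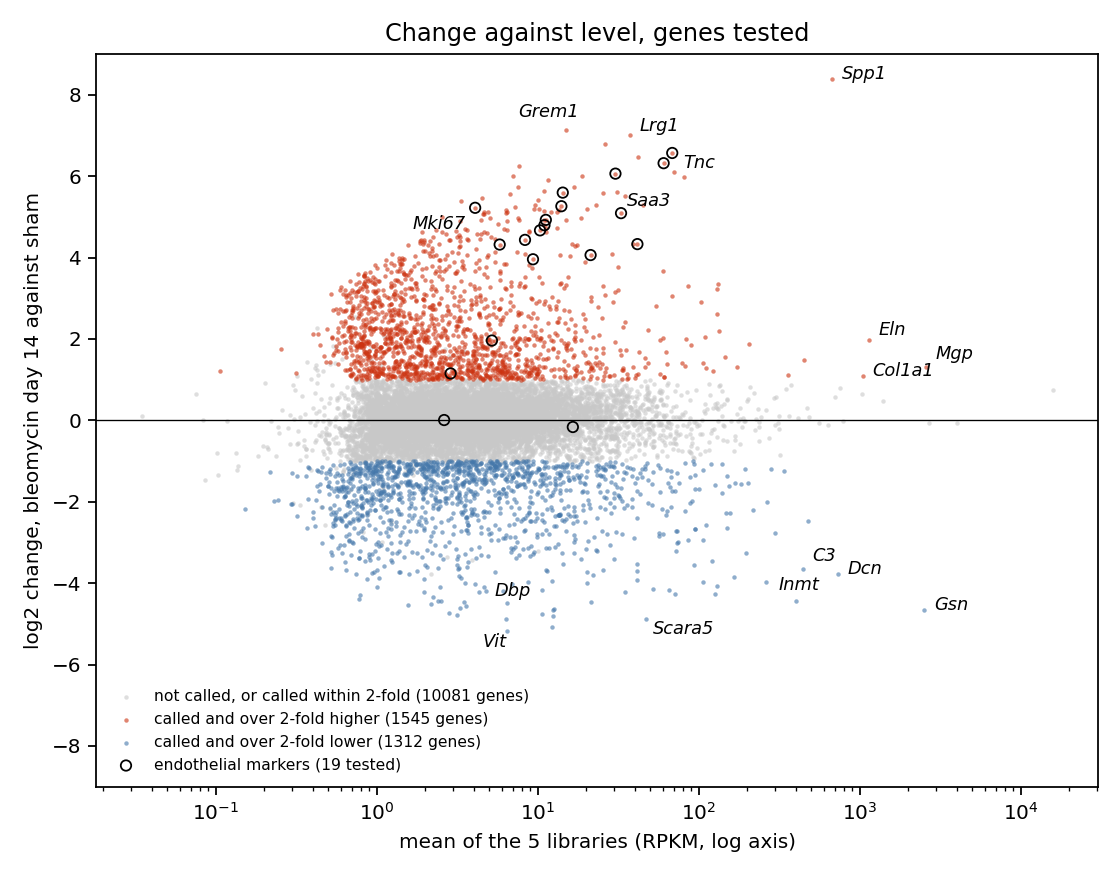
Log2 change at day 14 after bleomycin against sham (vertical axis) by the mean of the 5 libraries (horizontal log axis, RPKM), 1 point per gene of the 12938 tested. Red and blue mark the 1545 and 1312 genes called and over 2-fold higher or lower, and circles mark 19 endothelial markers, 17 of which were called higher. Spp1 and Gsn stand far from 0 among abundant genes.

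In what follows, each log2 change is bleomycin minus sham on the log2(RPKM + 0.1) scale with its standard error (n = 3 and n = 2), and this scale understates the change of low genes. Every count of list members called is to be read beside the 33.4% of all genes called higher and 29.9% lower. Counts near those shares do not set a list apart. Genes are named by a rule given with the processing, except where the text says that a gene was chosen after its values were seen.

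Among genes averaging 10 RPKM or more over the 5 libraries, Spp1 and Grem1 rose most. Spp1 encodes osteopontin, a secreted glycoprotein of bone and of injured tissue, and lies at chr5:104435118-104441050 on the plus strand (GRCm38). It measured 2.91 and 2.32 RPKM in the sham libraries and 1341, 715 and 1297 RPKM in the bleomycin libraries, so the lowest bleomycin library stood far above either sham library. The log2 change was 8.40 ± 0.38, or 337-fold on that scale (adjusted p = 6.7e-08). Grem1, at chr2:113746164-113758646 on the minus strand, encodes gremlin 1, a secreted antagonist that binds BMP ligands. Its values were 0.0785 and 0.0302 RPKM in the sham libraries and 28.7, 20.97 and 25.5 RPKM in the bleomycin libraries, a change of 7.14 ± 0.41 (adjusted p = 1.5e-07). Tnc, at chr4:63959785-64047015 on the minus strand, encodes tenascin C, a matrix glycoprotein made during wound repair. Tnc measured 1.5 and 1.14 RPKM in the sham libraries and 140.4, 98.5 and 109 RPKM in the bleomycin libraries and rose by 6.11 ± 0.41. Its relative Tnn, tenascin N, reached 17.6, 8.08 and 7.94 RPKM from 0.1298 and 0.0574 RPKM and was highest in replicate 1. Lrg1, a secreted leucine-rich glycoprotein of the acute phase, measured 0.3396 and 0.267 RPKM in the sham libraries and 45.5, 65.7 and 75.5 RPKM in the bleomycin libraries. Sema7a, a membrane-anchored semaphorin that signals through integrins, measured 0.283 and 0.186 RPKM in the sham libraries and 35.7, 45.5 and 49.5 RPKM in the bleomycin libraries. Neither gene exceeded 0.5 RPKM in sham, and both had their lowest bleomycin value in replicate 1, as did the summed endothelial markers. The part of other cells in the rise of Lrg1 and Sema7a was not tested. Saa3, an acute-phase apolipoprotein of the serum amyloid family, rose from 0.919 and 0.627 RPKM to 70.1, 42.6 and 41.2 RPKM. How any reads shared with other members of the family were assigned is not given.

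Several other strongly higher genes are known from blood vessels. Cldn5, the endothelial tight-junction claudin, measured 1.21 and 0.5898 RPKM in the sham libraries and 63.5, 150.01 and 127 RPKM in the bleomycin libraries, a change of 6.57 ± 0.41, which was 5.85 in bleomycin replicate 1 alone. Cdh5, Egfl7, Tie1, Icam2, S1pr1, Sox17 and Sox18, all textbook endothelial genes, rose by 5.58 ± 0.33 (S1pr1) to 6.32 ± 0.50 (Cdh5). Gpihbp1, which anchors lipoprotein lipase to the capillary wall, went from 0.215 and 0.1198 RPKM to 12.5, 22.1 and 22.8 RPKM. Cd36, a fatty-acid receptor of capillaries and macrophages, measured 2.08 and 1.28 RPKM in the sham libraries and 90.3, 155 and 155 RPKM in the bleomycin libraries. Each of these 10 genes had its lowest bleomycin value in replicate 1, as did the summed endothelial markers.

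Among abundant genes, 8 rose most in absolute level. Mgp, matrix Gla protein, an inhibitor of calcification, measured 1249.7 and 1129 RPKM in the sham libraries and 3888, 2969 and 3713 RPKM in the bleomycin libraries and rose by 1.32 ± 0.17. Eln, the elastin precursor, measured 343 and 357 RPKM in the sham libraries and 1517, 1999.9 and 1459 RPKM in the bleomycin libraries and rose by 1.99 ± 0.36. Fn1, fibronectin, measured 162 and 209 RPKM in the sham libraries and 777, 517 and 579 RPKM in the bleomycin libraries and rose by 1.49 ± 0.29, with no overlap between the groups. Col1a1 rose by 1.09 ± 0.31 (adjusted p = 0.00899), and Sparc, a collagen-binding glycoprotein, by 0.80 ± 0.24 (adjusted p = 0.0116). The calls of both rested on sham replicate 1: without it Col1a1 changed by 0.78 (adjusted p = 0.101) and Sparc by 0.49 (adjusted p = 0.148).

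**Figure D3:**
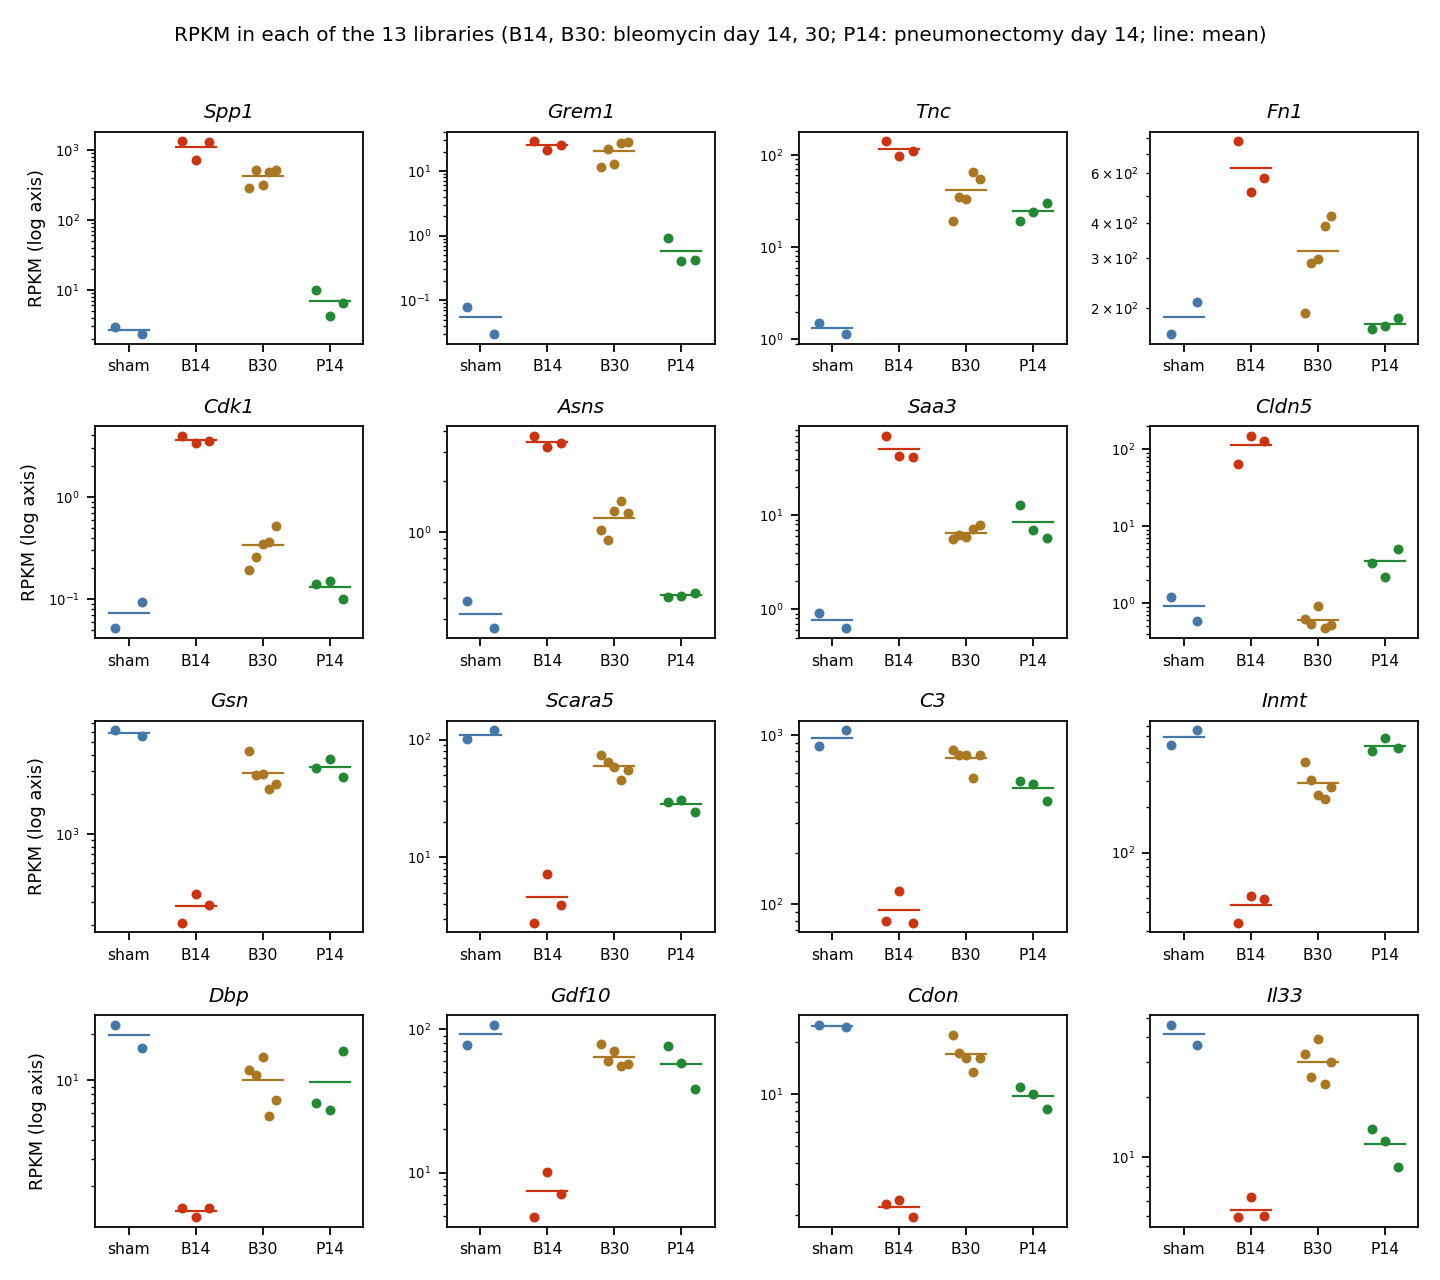
RPKM (log axes) of 16 genes in each of the 13 libraries, 1 point per library with a line at the group mean; B14 and B30 are bleomycin day 14 and 30, P14 pneumonectomy day 14. At day 14 after bleomycin Spp1 lies at 715 to 1341 RPKM against 2.32 to 2.91 in sham, and Gsn at 209 to 349 RPKM against 5589 to 6189.

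Among genes that fell, Gsn had the largest loss in absolute level. Gsn, the actin-severing protein gelsolin, is at chr2:35256380-35307892 on the plus strand. It measured 6189 and 5589 RPKM in the sham libraries and 209, 349 and 289 RPKM in the bleomycin libraries, with a log2 change of -4.66 ± 0.29 (adjusted p = 1.9e-07). Scara5, a ferritin receptor at chr14:65666403-65764826 on the plus strand, measured 101 and 120.3 RPKM in the sham libraries and 2.78, 7.203 and 3.91 RPKM in the bleomycin libraries and fell by a log2 change of -4.89 ± 0.31. Clec3b, the plasminogen-binding tetranectin, went from 830.5 and 1023 RPKM to 40.7, 68.1 and 45.5 RPKM. Vit (vitrin, a matrix protein) and Pcsk6 (a proprotein convertase) had log2 changes of -5.17 ± 0.45 and -5.08 ± 0.32, the largest falls among genes of at least 10 RPKM in sham. Dpt, dermatopontin, which assists collagen fibril formation, measured 591 and 584 RPKM in the sham libraries and 109, 98.9 and 99.7 RPKM in the bleomycin libraries. Rbp4, the carrier of retinol in blood, went from 23.3 and 35.04 RPKM to 1.05, 1.36 and 1.27 RPKM. Ptgfr, the prostaglandin F receptor, went from 14.1 and 16.1 RPKM to 0.296, 0.708 and 0.572 RPKM. For each of these genes the bleomycin libraries lay below both sham libraries. Efhd1 and its antisense transcript Efhd1os fell alike, but their reads cannot be told apart without knowledge of strand. In all, 52 genes passed from at most 0.5 RPKM in both sham libraries to at least 5 RPKM in all bleomycin libraries, and 8 went the reverse way, among them Ebf2, Wnt2b, Wnt10b and Aox3.

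Matrix genes did not move in 1 direction. Of 92 matrix genes listed, 89 were tested, 35 were called higher and 34 lower, beside 33.4% of all genes higher and 29.9% lower. Their median log2 change was -0.01 and turned to 0.22 without scaling factors. Fibrillar and fibril-associated collagens mostly rose: 9 of 13 were higher, 1 lower and 3 not called, with a median of 1.06 against 0.02 for all genes. Col11a1, a minor fibrillar chain that sets fibril diameter, went from 0.0491 and 0.0389 RPKM to 2.5, 2.398 and 1.99 RPKM, a change of 3.85 ± 0.78. Col3a1, the collagen III chain, was abundant and not called, at 567 and 873 RPKM in the sham libraries and 933, 784 and 776 RPKM in the bleomycin libraries; its interval for the log2 change was -0.55 to 0.53 and the sign of its estimate depended on the setting. Col14a1, a fibril-associated collagen of adventitial fibroblasts, was the member that fell, from 237 and 241 RPKM to 12.3, 27.3 and 17.4 RPKM (-3.96 ± 0.29).

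Among the other collagens 5 of 18 were higher (8 without scaling factors) and 7 lower. Col7a1, which forms anchoring fibrils, rose from 0.206 and 0.157 RPKM to 7.83, 6.696 and 6.96 RPKM (4.47 ± 0.52), and Col4a1, of the basement membrane, from 60.4 and 77.8 RPKM to 286, 299.6 and 307 RPKM (1.87 ± 0.20). Col4a1 is also made by endothelial cells, whose part in its rise was not tested. In replicate 1 it differed by -0.006 on the log2 scale from the mean of replicates 2 and 3, where endothelial markers centred at -0.71. Col6a6 fell from 3.34 and 4.71 RPKM to 0.1299, 0.377 and 0.317 RPKM. Col6a1, the most abundant member, was not called, with 175 to 193 RPKM in sham and 215 to 317 RPKM after bleomycin.

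Elastic-fibre genes split into 6 higher and 12 lower of 21, with a median of -0.59. Eln and Ltbp2, a fibrillin-binding protein, rose, the latter from 2.67 and 2.46 RPKM to 59.8, 71.1 and 59.2 RPKM (4.33 ± 0.36). Fbln1, fibulin 1, fell from 299.7 and 280.2 RPKM to 11.95, 25.2 and 18 RPKM (-4.28 ± 0.26), and Ltbp4, which tethers latent TGF-beta and guides elastic-fibre assembly, fell from 460.4 and 370.2 RPKM to 40.98, 63.2 and 52.2 RPKM (-3.25 ± 0.19). Matrix glycoproteins comprised 10 higher and 7 lower of 20. Spp1, Tnc and Tnn rose most in that set, and Vit and Tnxb, tenascin X, fell most, Tnxb falling from 154 and 173 RPKM to 7.38, 14.3 and 9.46 RPKM. Proteoglycan and hyaluronan genes comprised 5 higher and 7 lower of 17 tested, with a median of -0.23 that turned to 0.01 without scaling factors. Dcn, decorin, a small leucine-rich proteoglycan that binds collagen, measured 1382 and 1856 RPKM in the sham libraries and 117, 169 and 131 RPKM in the bleomycin libraries (-3.78 ± 0.25), and its relative Omd, osteomodulin, went from 6.91 and 9.54 RPKM to 0.209, 0.476 and 0.338 RPKM. Cemip, which depolymerises hyaluronan, rose from 0.0739 and 0.0193 RPKM to 3.12, 1.74 and 2.19 RPKM (3.85 ± 0.43).

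**Figure D4:**
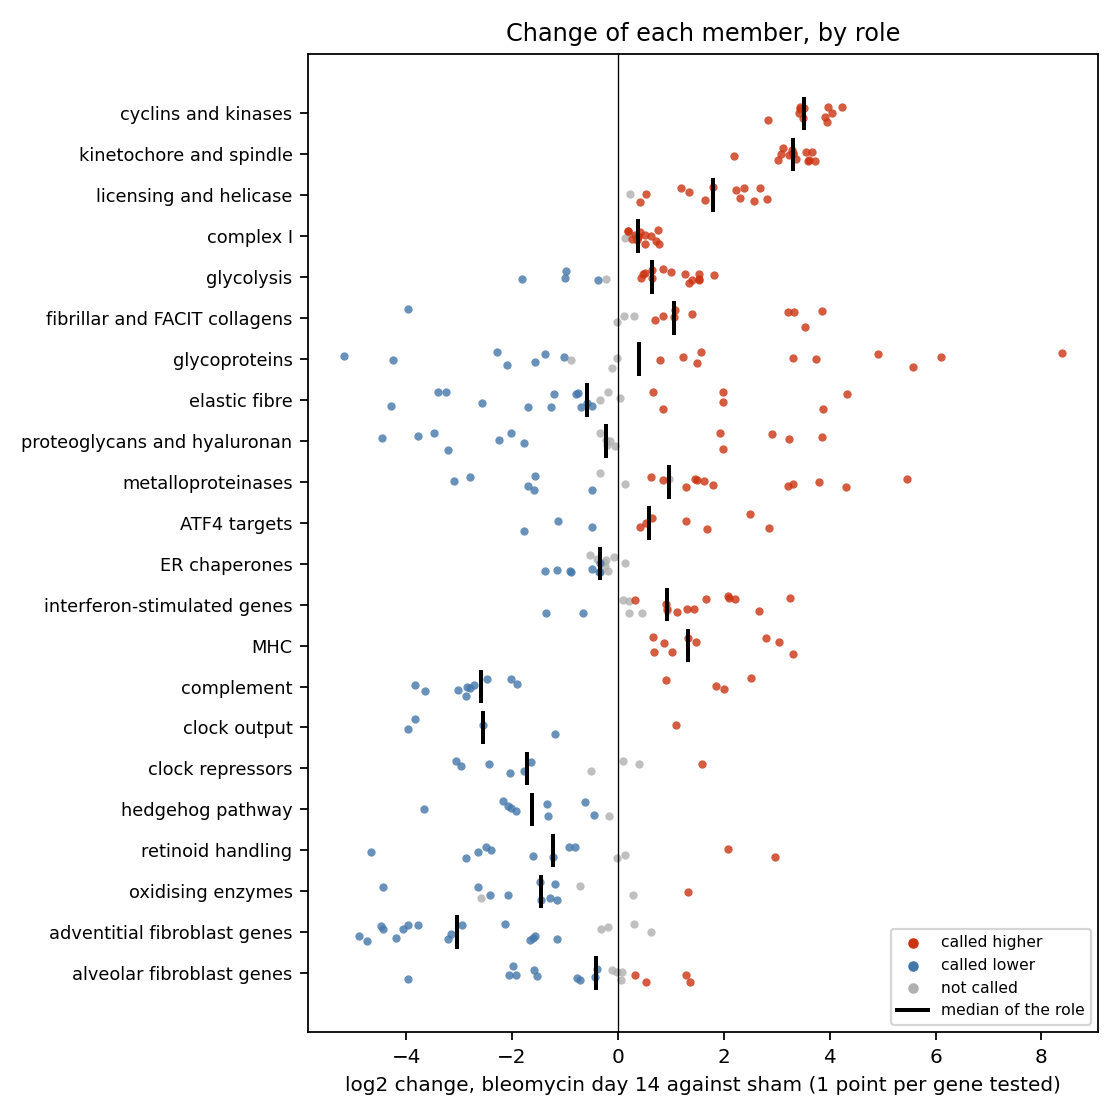
Log2 change (horizontal axis) of each tested gene in 22 gene groups, 1 point per gene, red for called higher, blue for called lower and grey for not called, with a bar at the group's median. Fibrillar collagens centre at 1.06, complement at -2.60 and adventitial genes at -3.05; most mitosis genes passed the filter only through the bleomycin libraries, so their position is a description.

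Genes for processing collagen did not rise as a group. Of 28 tested, 7 were higher and 14 lower, and without scaling factors the split was 11 higher and 9 lower. P4ha3, a catalytic subunit of prolyl 4-hydroxylase, rose from 0.545 and 0.448 RPKM to 20.98, 16.9 and 17.6 RPKM (4.72 ± 0.40), whereas the abundant subunit P4hb was not called (103 to 105 RPKM in sham and 134 to 168 RPKM after bleomycin). Fkbp10, a collagen chaperone, rose by 0.94 ± 0.16. Serpinh1, the collagen chaperone HSP47, measured 212 and 189.6 RPKM in the sham libraries and 259, 224 and 251 RPKM in the bleomycin libraries and was not called. Among procollagen-cleaving genes 4 of 5 fell, with Pcolce2, an enhancer of that cleavage, going from 83.3 and 95.6 RPKM to 8.28, 10.02 and 8.97 RPKM (-3.53 ± 0.24) and its relative Pcolce from 92.5 and 142 RPKM to 43.7, 39.2 and 39.5 RPKM (-1.73 ± 0.20). Adamts14, a procollagen protease, rose by 2.09 ± 0.31.

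Of 21 metalloproteinase genes 12 were higher, 6 lower and 3 not called, with a median of 0.96, beside 33.4% of all genes higher and 29.9% lower. Without the member that passed the filter only through the bleomycin libraries, 11 of 20 were higher. Mmp13, a collagenase, rose from 0.0332 and 0.05198 RPKM to 10.96, 4.75 and 6.897 RPKM (5.46 ± 0.41) and was highest in replicate 1. Mmp2, the most abundant of the list, fell from 202 and 192 RPKM to 77.2, 81.2 and 75.7 RPKM (-1.58 ± 0.12), and Adam33, a membrane protease of mesenchymal cells, from 6.83 and 4.39 RPKM to 0.386, 0.8101 and 0.897 RPKM. The inhibitors were divided. Timp1 measured 19.8 and 35.7 RPKM in the sham libraries and 246, 143 and 205 RPKM in the bleomycin libraries and rose by 2.62 ± 0.31, while Timp2 measured 403 and 518 RPKM in the sham libraries and 143, 133 and 132 RPKM in the bleomycin libraries and fell by a log2 change of -1.995 ± 0.14. Serpinf1, an anti-angiogenic serpin, fell from 202 and 202 RPKM to 17.04, 23.8 and 20.4 RPKM, and Ctss, a cathepsin of macrophages, rose from 2.78 and 2.39 RPKM to 19.1, 79.2 and 53.4 RPKM in step with the macrophage markers (2.62 in replicate 1 alone against 3.77 ± 0.51).

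Most genes of adventitial fibroblasts fell. Of 20, 16 were lower and none higher (1 higher without bleomycin replicate 1), all 16 over 2-fold, with a median of -3.05 beside a background of 10.1% of all genes. The member Il33, an alarmin cytokine stored in the nucleus, measured 46.3 and 36.7 RPKM in the sham libraries and 4.96, 6.25 and 5.05 RPKM in the bleomycin libraries (-3.15 ± 0.24). Sfrp4, a secreted WNT inhibitor, went from 54.8 and 43.7 RPKM to 1.65, 3.897 and 2.42 RPKM. Of 18 alveolar fibroblast genes 10 were lower, 6 of them over 2-fold, 4 were higher and 4 were not called, with a median of -0.42. Inmt, a methyltransferase that marks alveolar fibroblasts, lies at chr6:55170626-55175043 on the minus strand and measured 521 and 656 RPKM in the sham libraries and 33.96, 51.5 and 49.2 RPKM in the bleomycin libraries (-3.97 ± 0.24). Slc27a6, a fatty-acid transporter, was the alveolar member that rose most, by 1.37 ± 0.13. In summed RPKM, the 38 genes of both states went from 4673 and 5478 in sham to 849, 1251 and 1075.

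Transcription factors of lung mesenchyme were divided, with 9 higher and 9 lower of 21, beside 33.4% of all genes higher and 29.9% lower. Ebf2, a factor of mesenchymal progenitors, fell from 6.99 and 6.48 RPKM to 0.114, 0.34 and 0.159 RPKM (-4.73 ± 0.31). Tbx2 and Tbx4, T-box factors of developing lung mesenchyme, rose by 2.30 ± 0.22 and 1.46 ± 0.22, Tbx4 from 6.08 and 6.17 RPKM to 21.7, 18.7 and 20.1 RPKM. Foxf1, which patterns lung mesenchyme and is also an endothelial gene, measured 8.06 and 6.21 RPKM in the sham libraries and 18.4, 38.2 and 34.9 RPKM in the bleomycin libraries, a change of 1.78 ± 0.25 that was 1.15 in replicate 1 alone. Runx1, a factor of activated fibroblasts and of blood cells, rose from 0.358 and 0.327 RPKM to 8.09, 5.42 and 6.25 RPKM (3.67 ± 0.26), while Twist2 fell by a log2 change of -2.70 ± 0.26. Among surface markers, Thy1 fell from 13.5 and 10.5 RPKM to 3.94, 5.92 and 4.199 RPKM and Fap from 2.28 and 1.93 RPKM to 0.4604, 0.536 and 0.461 RPKM, whereas Lrrc15, a marker of activated myofibroblasts, rose from 0.0195 and 0.00786 RPKM to 1.68, 1.47 and 1.38 RPKM. Pdgfrb, the platelet-derived growth factor receptor of mesenchyme, was not called, at 30.2 and 31.1 RPKM in the sham libraries and 31.3, 27.3 and 29.03 RPKM in the bleomycin libraries.

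Contractile genes gave no common direction. Of 20, 8 were higher and 7 lower, beside 33.4% of all genes higher and 29.9% lower. Their median of -0.14 turned to 0.10 without scaling factors and to 0.27 without sham replicate 1. Acta2, smooth muscle alpha-actin and the usual mark of myofibroblasts, measured 556 and 278 RPKM in the sham libraries and 239, 253 and 283 RPKM in the bleomycin libraries. Its change of -0.85 ± 0.28 (adjusted p = 0.0205) was -0.35 without sham replicate 1 (adjusted p = 0.299), and the sham libraries themselves lay apart. The Acta2 call was also lost without scaling factors (adjusted p = 0.0795) and with the 5 compared libraries fitted alone (adjusted p = 0.05702). Myh9, non-muscle myosin, rose by 1.73 ± 0.18, and Synpo2, an actin-bundling protein of smooth muscle, fell from 11.4 and 6.02 RPKM to 1.18, 2.18 and 2.27 RPKM. Integrin and focal adhesion genes were lower in 10 of 19 and higher in 5 (2 without sham replicate 2), with Itgb1, the common beta chain, rising by 0.71 ± 0.11 and Itga11, a collagen receptor of fibroblasts, falling by a log2 change of -1.78 ± 0.20. The YAP targets Ctgf (CCN2) and Cyr61 (CCN1), secreted matricellular proteins, went from 302 and 153 RPKM to 96.9, 98.9 and 100.2 RPKM and from 348 and 133 RPKM to 82.3, 69.2 and 69.7 RPKM. Cyr61 changed by -1.79 ± 0.40, and by -1.10 without sham replicate 1. Piezo2, a stretch-activated channel, rose by 2.74 ± 0.29.

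Cell division genes were nearly absent in sham and present after bleomycin. The summed RPKM of all 36 listed mitosis genes was 6.04 and 7.11 in sham and 127, 99.3 and 106 after bleomycin. All 32 that were tested were higher, but only 2 would have passed the filter without the bleomycin libraries, so that count describes and does not support. Cdk1, the kinase that drives entry into mitosis, is at chr10:69335146-69352938 on the minus strand and measured 0.0516 and 0.0928 RPKM in the sham libraries and 3.97, 3.35 and 3.53 RPKM in the bleomycin libraries (4.23 ± 0.28). Top2a, topoisomerase II alpha, went from 0.123 and 0.204 RPKM to 5.99, 4.82 and 4.84 RPKM, and Mki67, which encodes the proliferation antigen Ki-67, from 0.09702 and 0.153 RPKM to 6.2, 5.12 and 5.02 RPKM (4.41 ± 0.30). Replicate 1 held the highest bleomycin value of all 32 tested genes, and which cells these transcripts came from was not tested. DNA replication genes rose from sums of 47.5 and 44.7 RPKM over 40 genes to 135, 113 and 123. Of the 16 that passed the filter without the bleomycin libraries 14 were higher and none lower. Mcm5, a subunit of the replicative helicase, went from 0.506 and 0.532 RPKM to 5.47, 4.42 and 5.13 RPKM (2.81 ± 0.20), Uhrf1, which maintains DNA methylation behind the fork, from 0.202 and 0.242 RPKM to 4.14, 2.795 and 3.48 RPKM (3.24 ± 0.27). Pcna, the sliding clamp of the polymerase, rose by 0.49 ± 0.12.

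Promoters of these genes share short elements, shown here because their transcripts moved together in the same libraries. The cell cycle homology region (TTTGAA) and the CCAAT box are bound by repressor and activator complexes of cell cycle genes. In RefSeq promoters (GRCm38.p6, from 250 bases before to 50 after the start, either strand), 21 of 31 mitosis genes with an entry held TTTGAA (67.7%) against 20.2% of 27025 genes. CCAAT was in 74.2% against 41.1%, and both were in 58.1% against 7.97%. Among tested genes with an entry, 13.5% held TTTGAA and 42% CCAAT. Parts of 5 such promoters follow, read 5′ to 3′ on the strand of the gene, with capitals for either element or its reverse complement. They span chr10:69352913-69353012 (minus strand), chr11:99024190-99024289 (minus), chr4:118437344-118437443 (minus), chr19:37376282-37376381 (plus) and chr2:164769829-164769918 (plus).
Cdk1: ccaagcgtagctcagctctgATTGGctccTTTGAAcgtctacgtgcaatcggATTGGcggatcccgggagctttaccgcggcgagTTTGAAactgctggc
Top2a: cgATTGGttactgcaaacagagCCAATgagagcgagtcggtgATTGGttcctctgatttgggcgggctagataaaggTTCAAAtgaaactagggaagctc
Cdc20: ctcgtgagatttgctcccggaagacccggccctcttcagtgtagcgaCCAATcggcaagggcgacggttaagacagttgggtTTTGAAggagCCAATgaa
Kif11: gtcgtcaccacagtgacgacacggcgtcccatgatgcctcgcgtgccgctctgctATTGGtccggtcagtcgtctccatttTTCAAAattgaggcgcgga
Ube2c: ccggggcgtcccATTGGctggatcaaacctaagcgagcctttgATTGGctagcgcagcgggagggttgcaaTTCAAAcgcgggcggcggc
Cdc20, the activator of the anaphase-promoting complex, rose from 0.333 and 0.447 RPKM to 9.396, 6.51 and 7.29 RPKM. Kif11, a spindle motor chosen after its values were seen, rose from 0.108 and 0.124 RPKM to 2.37, 1.82 and 2.02 RPKM, and Ube2c, a ubiquitin-conjugating enzyme of mitotic exit chosen in the same way, from 0.216 and 0.326 RPKM to 3.89, 3.44 and 3.25 RPKM. All 5 are single stretches that hold the letters, which does not make them sites of binding.

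The E2F element TTTGGCGC was in promoters of 6 of 32 DNA replication genes with an entry (18.8%). It was in those of 0.585% of all genes with an entry and of 1.07% of tested genes with one. Mcm6, a helicase subunit chosen after its values were seen, holds 2 copies at chr1:128359706-128359825 on the minus strand, in capitals.
Mcm6: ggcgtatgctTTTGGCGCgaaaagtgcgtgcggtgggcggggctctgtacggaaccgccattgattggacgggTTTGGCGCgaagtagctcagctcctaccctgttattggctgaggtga
Its transcript measured 0.543 and 0.429 RPKM in the sham libraries and 4.89, 3.76 and 4.29 RPKM in the bleomycin libraries.

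Targets of ATF4, the factor of the amino-acid response, rose in 7 of 10 and fell in 3, with a median of 0.59. Asns, asparagine synthetase, measured 0.384 and 0.264 RPKM in the sham libraries and 3.74, 3.19 and 3.38 RPKM in the bleomycin libraries and rose by 2.84 ± 0.20 (adjusted p = 3.4e-07). Vldlr, a lipoprotein receptor on the same list, fell by a log2 change of -1.78 ± 0.15. In a separate list of serine, one-carbon and proline synthesis 8 of 17 genes were higher, 2 lower and 7 not called, and 5 of the 13 that passed the filter without the bleomycin libraries were higher. Psat1, of serine synthesis, rose from 0.613 and 0.843 RPKM to 3.69, 2.45 and 3.23 RPKM, and Mthfd2, a mitochondrial enzyme of one-carbon metabolism, from 0.729 and 0.848 RPKM to 3.94, 2.87 and 3.17 RPKM. A C/EBP-ATF element, written TGATGNAA, was in promoters of 7 of 13 genes of the ATF4 target list (53.8%). It was in those of 4.51% of all genes with an entry and of 2.68% of tested genes with one. The Asns promoter holds it in capitals at chr6:7693225-7693309 on the minus strand.
Asns: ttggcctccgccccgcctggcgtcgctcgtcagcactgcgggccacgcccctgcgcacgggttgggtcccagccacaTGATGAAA
Chaperones of the endoplasmic reticulum went the other way, with 8 of 16 lower and none higher, but without scaling factors, and likewise without sham replicate 1, 4 were lower and 1 higher. Herpud1, of protein degradation at that membrane, fell from 26.6 and 27.1 RPKM to 10.8, 12.8 and 12.8 RPKM (-1.39 ± 0.16), and Calr, the chaperone calreticulin, was not called (108 to 135 RPKM in sham and 119 to 122 RPKM after bleomycin).

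Subunits of oxidative phosphorylation mostly rose by small amounts. Of 40 tested 37 were higher and none lower, with a median of 0.51, and 2 were over 2-fold. Cox5a, a subunit of cytochrome oxidase, measured 9.84 and 10.1 RPKM in the sham libraries and 29.4, 31.8 and 32.7 RPKM in the bleomycin libraries and rose by 1.40 ± 0.09, and Ndufa4 rose by 0.72 ± 0.12. The sum over all 42 listed genes was 460 and 439 RPKM in sham and 746, 744 and 793 RPKM after bleomycin. Glycolysis genes were higher in 14 of 19, 8 of them over 2-fold, and lower in 4. Pkm, pyruvate kinase, measured 39.1 and 35.9 RPKM in the sham libraries and 119.9, 104 and 115 RPKM in the bleomycin libraries (1.34 ± 0.11), and Pfkl, a phosphofructokinase, rose by 1.82 ± 0.12, whereas Ldhb, the heart form of lactate dehydrogenase, fell from 7.204 and 6.78 RPKM to 1.84, 2.61 and 2.45 RPKM. Hypoxia targets were higher in 4 of 9 and lower in 3, beside 33.4% of all genes higher and 29.9% lower. Epas1, a hypoxia-inducible factor that is also an endothelial gene, rose from 13.9 and 7.76 RPKM to 71.6, 127 and 121 RPKM, and the hypoxia target Ankrd37 from 0.411 and 0.386 RPKM to 11.5, 15.7 and 16.5 RPKM. Adm, adrenomedullin, fell from 24.1 and 23.7 RPKM to 5.35, 5.64 and 5.47 RPKM.

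Lipid genes were mixed. In sterol synthesis 7 of 13 were higher and 1 lower (3 without sham replicate 2), with Cyp51, a demethylase of lanosterol, at 2.33 and 0.951 RPKM in the sham libraries and 5.79, 5.53 and 5.72 RPKM in the bleomycin libraries, a change of 1.62 ± 0.26 that was 2.22 without sham replicate 1. Fatty-acid synthesis genes were lower in 6 of 10, a count of 1 without scaling factors, of 2 without sham replicate 1 and of 3 without bleomycin replicate 2, led by the desaturase Scd1, from 15.4 and 15.9 RPKM to 4.37, 4.302 and 4.84 RPKM (-2.02 ± 0.50). Plin4, a coat protein of lipid droplets, fell by a log2 change of -1.90 ± 0.31. Lipe, hormone-sensitive lipase, rose by 2.38 ± 0.15. In ribosome production 13 of 28 genes were higher, a count of 23 without scaling factors and of 7 without sham replicate 1, while Myc, which drives that programme, fell from 20.7 and 13.3 RPKM to 7.18, 6.27 and 6.45 RPKM (-1.55 ± 0.29).

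Ligands and receptors moved in both directions, beside 33.4% of all genes higher and 29.9% lower. Of 30 genes of the PDGF, VEGF, IGF and TGF-beta families 10 were higher and 16 lower, and of 15 genes of the FGF, HGF and EGF families 5 were higher and 5 lower. Gdf10, a TGF-beta family ligand, measured 78.04 and 107 RPKM in the sham libraries and 4.88, 10.2 and 7.13 RPKM in the bleomycin libraries (-3.92 ± 0.32). Igfbp4, which sequesters insulin-like growth factors, fell from 243 and 279 RPKM to 112, 101 and 104 RPKM. Pdgfb, a ligand made by endothelial cells and macrophages, rose from 0.665 and 0.486 RPKM to 13.4, 26.3 and 24.9 RPKM, by 4.72 ± 0.29 and by 4.12 in replicate 1 alone. Ereg, an epidermal growth factor receptor ligand, rose from 0.508 and 0.333 RPKM to 9.54, 4.802 and 8.099 RPKM (3.60 ± 0.34), and Met, the hepatocyte growth factor receptor, fell by a log2 change of -2.26 ± 0.30. Fgfr1 fell from 37.3 and 32.1 RPKM to 18.4, 14.2 and 15.6 RPKM, whereas Fgf10, an epithelial growth factor of alveolar fibroblasts, was not called, at 6.16 and 7.59 RPKM in the sham libraries and 8.37, 5.55 and 6.22 RPKM in the bleomycin libraries.

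BMP genes were 8 higher and 8 lower of 18, beside 33.4% of all genes higher and 29.9% lower. Against the rise of Grem1, the BMP antagonist Chrdl1 fell from 7.41 and 10.8 RPKM to 1.07, 1.08 and 1.23 RPKM (-3.11 ± 0.21). WNT genes were 4 higher and 8 lower of 19. Wnt2b, a ligand, fell from 6.81 and 8.27 RPKM to 0.147, 0.3001 and 0.208 RPKM (-4.78 ± 0.32), and Notum, which inactivates WNT ligands, rose from 0.246 and 0.214 RPKM to 11.8, 6.97 and 11.6 RPKM (4.69 ± 0.35). Sfrp1, a secreted inhibitor, measured 26.3 and 48.3 RPKM in the sham libraries and 99.3, 46.2 and 75.4 RPKM in the bleomycin libraries and was not called. Hedgehog genes were lower in 9 of 10, 7 of them over 2-fold, with a median of -1.63. Cdon, a co-receptor, measured 25.3 and 24.6 RPKM in the sham libraries and 2.31, 2.43 and 1.93 RPKM in the bleomycin libraries (-3.67 ± 0.19), Gas1, another co-receptor, fell from 37.7 and 56.4 RPKM to 13.1, 11.6 and 11.6 RPKM, and Gli1, the pathway's transcription factor and read-out, from 13.8 and 18.4 RPKM to 3.84, 5.38 and 4.58 RPKM (-2.02 ± 0.18).

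Most complement genes fell. Of 14, 10 were lower, all over 2-fold, and 4 were higher, with a median of -2.60. C3, the central component, measured 865 and 1069 RPKM in the sham libraries and 79.1, 120.3 and 77.5 RPKM in the bleomycin libraries (-3.65 ± 0.23), and Serping1, the C1 inhibitor, measured 792 and 1015 RPKM in the sham libraries and 188, 208 and 179.6 RPKM in the bleomycin libraries. C7, of the membrane attack complex, fell from 154 and 595 RPKM to 17.8, 35.04 and 24.9 RPKM, by a log2 change of -3.84 ± 0.42 and of -4.81 without sham replicate 1. The member that rose most, C1qa, is made by macrophages and rose with their markers, from 1.34 and 2.27 RPKM to 6.02, 21.95 and 13.9 RPKM. Its log2 change of 2.50 ± 0.41 was 1.51 in replicate 1 alone.

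Chemokines were 7 higher, 3 lower and 5 not called, beside 33.4% of all genes higher and 29.9% lower. Ccl11, eotaxin, fell from 72.2 and 111 RPKM to 7.55, 9.27 and 7.57 RPKM (-3.69 ± 0.37) and the neutrophil chemokine Cxcl1 from 124 and 88.2 RPKM to 35.7, 25.8 and 21.8 RPKM. Cxcl12, the ligand of CXCR4, rose from 16.6 and 19.8 RPKM to 41.4, 52.1 and 48.4 RPKM (1.13 ± 0.18). Ptx3, a pentraxin of innate immunity, fell by a log2 change of -3.23 ± 0.57, and Hp, the haemoglobin scavenger haptoglobin, rose from 0.805 and 1.05 RPKM to 84.99, 43.5 and 45.02 RPKM and was highest in replicate 1. Il6 measured 59.4 and 29.2 RPKM in the sham libraries and 14.9, 13.8 and 11.6 RPKM in the bleomycin libraries; its change of -1.88 ± 0.60 was -1.37 and no longer called without sham replicate 1 (adjusted p = 0.142).

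All 9 genes of antigen presentation were higher, 6 of them without sham replicate 1 and 5 with bleomycin replicate 1 alone. Cd74, the invariant chain of MHC class II, measured 9.13 and 10.95 RPKM in the sham libraries and 57.3, 219 and 132 RPKM in the bleomycin libraries, a change of 3.31 ± 0.59 that was 2.29 in replicate 1 alone. B2m, the light chain of class I, rose by 0.87 ± 0.25 (adjusted p = 0.00923) and by 0.28 in replicate 1 alone (adjusted p = 0.189). The B2m call was also lost without sham replicate 1 (0.71, adjusted p = 0.07902) and with the 5 compared libraries fitted alone (adjusted p = 0.0971).

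Interferon-stimulated genes were higher in 12 of 19 tested and lower in 2, and 8 of the 15 that passed the filter without the bleomycin libraries were higher. Oas1a, a sensor enzyme for double-stranded RNA with close paralogues, measured 0.157 and 0.118 RPKM in the sham libraries and 1.86, 3.75 and 2.28 RPKM in the bleomycin libraries (3.25 ± 0.32). Bst2, which tethers virus particles, rose from 15.8 and 14.1 RPKM to 31.4, 53.03 and 34 RPKM. Irf1, a factor induced by interferon, went from 28.4 and 13.2 RPKM to 7.62, 11.4 and 8.12 RPKM; the change of -1.35 ± 0.36 was -0.80 without sham replicate 1 (adjusted p = 0.09703). The interferon-stimulated response element, taken as GAAA, any 2 bases and GAAA, was in promoters of 9 of 16 genes of the list (56.2%). The element was in those of 3.99% of all genes with an entry and of 3.63% of tested genes with one. It is in capitals in Isg15, a ubiquitin-like protein chosen after its values were seen, at chr4:156200819-156200918 (minus strand), and in Oas1a, at chr5:120907526-120907625 (minus strand).
Isg15: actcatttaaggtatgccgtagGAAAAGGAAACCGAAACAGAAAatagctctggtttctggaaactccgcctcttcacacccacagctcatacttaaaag
Oas1a: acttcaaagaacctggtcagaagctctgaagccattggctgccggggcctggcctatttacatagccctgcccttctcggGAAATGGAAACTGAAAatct
Isg15 measured 1.996 and 3.25 RPKM in the sham libraries and 12.8, 18.3 and 10.2 RPKM in the bleomycin libraries, with the highest value in replicate 2.

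Genes of the circadian clock, which depend on the hour of the day, differed strongly. Of 19, 12 were lower and 3 higher, with a median of -1.35. Dbp, a clock-output factor at chr7:45705088-45710203 on the plus strand, measured 23.05 and 16.3 RPKM in the sham libraries and 1.43, 1.25 and 1.43 RPKM in the bleomycin libraries (-3.96 ± 0.40). Per3, a repressor, fell from 5.67 and 4.14 RPKM to 0.612, 0.558 and 0.586 RPKM, while Arntl, the activator BMAL1, rose from 1.02 and 1.87 RPKM to 5.45, 5.58 and 5.84 RPKM (1.70 ± 0.29) and the repressor Cry1 from 0.781 and 0.835 RPKM to 2.898, 3.09 and 3.32 RPKM. The hour of collection is not given, so hour and treatment cannot be told apart. Glucocorticoid-response genes were lower in 10 of 18 and higher in 2, beside 29.9% of all genes lower and 33.4% higher. Klf15, a direct target of the receptor, fell from 5.17 and 5.05 RPKM to 0.645, 0.829 and 0.955 RPKM (-2.75 ± 0.24), and Sgk1, a kinase, rose by 1.44 ± 0.11.

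Immediate-early genes, which respond within minutes to stimuli that include tissue handling, were lower in 13 of 17. Egr1 measured 489 and 301 RPKM in the sham libraries and 90.01, 105 and 101 RPKM in the bleomycin libraries (-2.21 ± 0.24). Fos measured 726 and 279.8 RPKM in the sham libraries and 232, 224 and 222 RPKM in the bleomycin libraries, and its log2 change of -1.24 ± 0.32 was -0.55 without sham replicate 1 (adjusted p = 0.0618). Sham replicate 1 held higher levels than sham replicate 2, and without it 4 of the 17 were lower, 11 were not called and the median went from -1.06 to -0.49.

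Among enzymes that handle retinoids and foreign compounds, 27 of 43 tested were lower, 7 were higher and 9 were not called, with a median of -1.15. Aox3, an aldehyde oxidase, went from 5.23 and 6.61 RPKM to 0.207, 0.248 and 0.182 RPKM, and Fmo2, the flavin monooxygenase of lung, from 74.8 and 106 RPKM to 26.99, 25.2 and 22.9 RPKM (-2.08 ± 0.14). Rarres2, chemerin, a retinoid-responsive adipokine, measured 242 and 344 RPKM in the sham libraries and 50.95, 58.8 and 53.5 RPKM in the bleomycin libraries. Crabp2, which delivers retinoic acid to its receptor, rose from 0.112 and 0.2103 RPKM to 2.88, 1.54 and 2.52 RPKM (2.97 ± 0.37), and Hmox1, haem oxygenase, rose by 0.79 ± 0.16.

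Genes of the p53 response and of senescence were higher in 16 of 28 and lower in 4, beside 33.4% of all genes higher and 29.9% lower. Of the 25 that passed the filter without the bleomycin libraries, 13 were higher. Cdkn2a, which encodes the cell cycle inhibitors p16 and ARF, measured 0.0253 and 0.0711 RPKM in the sham libraries and 2.48, 2.11 and 2.36 RPKM in the bleomycin libraries (3.84 ± 0.41). Gtse1, a p53-binding protein of dividing cells, rose with the mitosis genes from 0.0871 and 0.0664 RPKM to 1.999, 1.88 and 1.48 RPKM. Perp, a p53 target of cell adhesion, fell from 3.99 and 3.75 RPKM to 0.909, 1.64 and 1.35 RPKM, and Bcl2, an inhibitor of apoptosis, fell by a log2 change of -0.80 ± 0.11.

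Within the bleomycin group, replicate 1 stood apart from replicates 2 and 3. It held the lowest value in 854 of the 1545 genes over 2-fold higher (55.3%) and the highest in 531. Among genes not called it was lowest in 1802 and highest in 1990 of 4750. Endothelial markers lay lower in replicate 1 in 17 of 19, by a median of 0.71 on the log2 scale below the mean of the other replicates. Macrophage markers lay lower in 18 of 18, by 1.39, and antigen-presentation genes in 9 of 9, by 0.94. Fibrillar collagens ran the other way, highest in replicate 1 in 11 of 13, by 0.44. Adventitial genes were lowest in replicate 1 in 16 of 20, by 0.58. With replicate 1 as the only bleomycin library, an alternative chosen after the data were seen in which that group has no spread of its own, 3243 genes were called higher and 3197 lower, 1403 and 1384 of them over 2-fold.

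**Figure D5:**
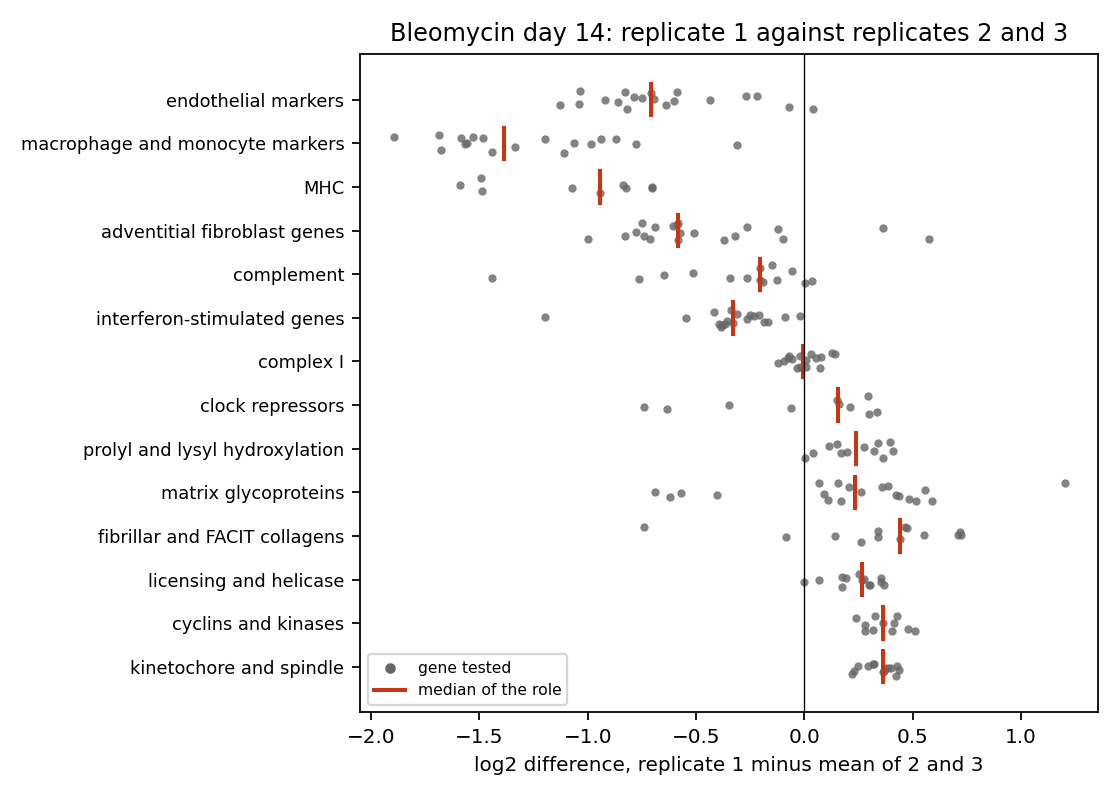
Log2 difference of bleomycin replicate 1 from the mean of replicates 2 and 3 (horizontal axis) for each tested gene of 14 groups, 1 point per gene with a bar at the median. Macrophage markers centre at -1.39 and endothelial markers at -0.71, and fibrillar collagens at 0.44.

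Set beside the other groups of the series, day 14 after bleomycin had 36.2% of genes called higher and 34.6% lower than pneumonectomy day 14, and 30.7% higher and 28.9% lower than bleomycin day 30. These comparisons share the bleomycin day 14 libraries with the one against sham. Spp1 stood at 290.1 to 523 RPKM at day 30 and at 4.25 to 9.87 RPKM after pneumonectomy, a log2 difference of 1.25 ± 0.31 from day 30 and of 6.89 ± 0.34 from pneumonectomy. Grem1 stood at 11.7 to 28.01 RPKM at day 30, overlapping the day 14 values (0.25 ± 0.33, adjusted p = 0.529), and at 0.3998 to 0.929 RPKM after pneumonectomy (4.84 ± 0.37). Cdk1, which passed the filter only through the bleomycin day 14 libraries, measured 0.193 to 0.521 RPKM at day 30. Cldn5 stood at 0.468 to 0.915 RPKM at day 30, a difference of 7.13 ± 0.33. Genes low at day 14 were higher in both other groups: Gsn stood at 2215 to 4280.4 RPKM and 2741 to 3737 RPKM, Scara5 at 45.7 to 73.4 RPKM and 24.2 to 30.6 RPKM, and C3 at 559 to 820.2 RPKM and 408 to 537 RPKM, at day 30 and after pneumonectomy in that order. The day 30 libraries were female by Xist (19.9 to 29.2 RPKM) and the day 14 libraries male, so sex and day cannot be told apart between them. Pneumonectomy libraries carried their own cell markers, with 404 to 565 summed RPKM of pericyte and smooth muscle markers against 160 to 221 at day 14 after bleomycin.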

How the data were processed

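RNA of 13 libraries was poly(A)-enriched and sequenced, per the labels' protocols. The deposited values are RPKM per gene, computed by the authors from reads and mapped to mm10 per the submitters' processing notes, which name GRCm38 as well for the pneumonectomy libraries. The aligner, the counter and the annotation are not given in the sources used here, and 0 columns of values were left unused. Genes were kept that reached 1 RPKM in 2 or more of the 13 libraries. RPKM values were scaled between libraries by trimmed means of ratios (30% of ratios and 5% of levels trimmed), 0.1 was added, and log2 values of all 13 libraries were fitted with limma 3.58.1 in R 4.3.3 (group means, empirical Bayes with an intensity trend, robust, 9 residual degrees of freedom). The 3 bleomycin and 2 sham libraries were then contrasted. Tests were two-sided, and the shared spread assumes that sham varies like the other groups. Genes were called at an adjusted p of 0.05 (Benjamini-Hochberg over all genes tested). Symbols listed more than once (131 entries) stayed separate and were not named.

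Members and lists were chosen with earlier results of these data known. Named genes were the 20 per direction with the largest log2 change at a mean of at least 10 RPKM and without overlap, the 8 per direction with the largest difference in RPKM, the 10 most abundant switched genes per direction (at most 0.5 RPKM in 1 group and at least 5 RPKM in the other), in each role of each list the called member with the largest change per direction and the most abundant member, the 3 most abundant members of marker lists, and a fixed panel of fibroblast genes. Scripts were tested on simulated data. Depth came from low RPKM values, taken as whole multiples of what 1 read is worth. The check used genes whose smallest depth-corrected value came to about 1 read. Of 37566 other low values of these genes, 99.9% lay within 0.01 of a whole multiple of that smallest value or of 0.5 of it. Genes of known length held 32.4 (sham replicate 1) to 49.96 M reads (bleomycin replicate 2) in the 5 libraries, less than the stated depths, and the reason was not tested. Deviations of same-numbered libraries from their group means correlated at -0.13 and -0.11 over 2 shared numbers. With 2 sham libraries both values rest on the same difference between them, so they cannot decide whether replicate numbers pair libraries. Gene positions are from GENCODE and promoter sequences from RefSeq (GRCm38.p6). Other pseudocounts, filters, scalings and models, and leaving out each of the 5 compared libraries, were tried.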

Additional observations from a re-analysis of the deposited data

Results flagged for a closer look

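Day 14 after bleomycin differed from both other groups in direct contrasts of group means. No control of their own is labelled for those groups, so effects of the treatments were not compared. Between day 14 and day 30 after bleomycin 7712 genes were called (limma, Benjamini-Hochberg), and between day 14 after bleomycin and day 14 after pneumonectomy 9158 genes were called. Both comparisons use the 3 bleomycin day 14 libraries. Sex differs between day 14 and day 30, and preparation as labelled differs between bleomycin and pneumonectomy, so neither can be told apart from the group.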

How the results depend on the processing

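Of 1666 values of 98 genes under the alternatives, 1630 kept their direction and side of the threshold, 30 lost their call and 6 turned in sign. All 6 were Col3a1, not called at -0.01. It was 0.0632 with no filter beyond a value above 0, 0.23 without scaling factors and 0.19 with bleomycin replicate 1 alone. Leaving out each of the 5 compared libraries in turn gave -0.32 to 0.30. Those values were above 0 without sham replicate 2 or bleomycin replicates 2 or 3. The 8188 genes called became 2775 when tested against a 1.5-fold change, a stricter question. Genes over 2-fold higher were 969 with a pseudocount of 1 and 2328 with no filter, which tests 28868 genes, and genes over 2-fold lower were 832 with a pseudocount of 1. Without scaling factors 71.6% of called genes were higher. The same 5 fits gave 7040 to 7777 genes called against sham, 1507 to 1575 over 2-fold higher and 1277 to 1328 over 2-fold lower. Leaving out each bleomycin day 14 library gave 6641 to 7011 against day 30 and 8470 to 8834 against pneumonectomy. No other library was left out for those last counts. With a replicate block, fitted without the pneumonectomy libraries, 6787 genes were called, within 1.5 times of the main count, as were those over 2-fold. In that fit the calls of Acta2 (adjusted p = 0.0908, limma) and B2m (adjusted p = 0.0528, limma) were lost. Genes higher in ribosome production went from 13 to 8. Genes lower went from 8 to 5 in endoplasmic reticulum chaperones, from 6 to 3 in fatty-acid synthesis and from 13 to 8 in immediate-early genes. None of the 3 platelet and erythroid markers stayed higher. Effects of the block and of leaving out the pneumonectomy libraries cannot be told apart in that fit. Replicate numbers are shared by 2 libraries of each group only. Counts of 1 or 2 in the glucocorticoid, interferon and clock activator groups also moved by 1 when a library was left out. Only 2 sham libraries were compared, 1 of them of mixed sex, which limits results for genes that differ between them; the cause of each lost call was not tested.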
